A study of Mus musculus with 3 samples.

Results

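A set of 9 genes of the transforming growth factor beta (TGF-beta) pathway was followed in cells of the mouse brain: the ligand gene Tgfb1, the receptor genes Tgfbr1 and Tgfbr2, the signal transducers Smad2, Smad3 and Smad4, the inhibitory Smad7, and the corepressors Ski and Skil. They were picked by symbol, and the 9 genes were found among the 32285 genes of the count tables. Cells sorted as CD45int CD11b+, the flow cytometry gate that microglia occupy, were profiled in droplets by sequencing the 3′ ends of their transcripts, and unique molecular identifiers (UMIs) counted the captured RNA molecules. There were 3 libraries, each pooled from 4 mice on day 4, and in every group the mice were Apoe knockouts (APOE-/-). One group had a sham induction and received PBS (here "sham"), one had NMOSD induction and a control peptide ("control peptide"), and one had NMOSD induction and the peptide APOE130-149 ("APOE130-149"). NMOSD, neuromyelitis optica spectrum disorder, is an autoimmune disease that attacks astrocytes. The design asks what this peptide, whose name gives a stretch of apolipoprotein E, does to microglia that lack the protein. Since the sham mice received PBS, induction and peptide cannot be told apart between sham and control peptide.

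TGF-beta is secreted in a latent form and released at the cell surface. The active ligand joins TGFBR2 to TGFBR1, TGFBR1 phosphorylates SMAD2 and SMAD3, and these enter the nucleus with SMAD4 and change transcription. SMAD7, itself a product of target gene activation, sends the receptors for degradation, while SKI and SKIL hold SMAD complexes silent on DNA. In the adult brain, microglia need TGF-beta to keep their resting gene programme, of which P2ry12, Tmem119 and Sall1 are familiar members.

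With 1 library per group there is no replicate, so no p-value or standard error was computed. The intervals given are 95% intervals of counting error alone, exact Poisson for a level, exact conditional for a ratio and exact binomial for a share of cells, and they do not hold the spread between pools of mice. Levels are CPM, the UMIs of a gene per 1000000 UMIs of all genes, summed over the cells of a type. Levels are set side by side only within a gene, because 3′ tags carry no length scale.

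The libraries held 4674 (sham), 5306 (control peptide) and 2175 (APOE130-149) barcodes with 32712199, 61469677 and 32060750 UMIs, and 11267 of 12155 barcodes were kept. Barcodes found in more than 1 library numbered 12. Apoe itself was read at 80.0, 106 and 121 CPM in microglia of the 3 libraries, and 3′ tags need not lie in the deleted part of the gene, so these values check nothing. Cells were assigned by marker genes, which gave 3001, 4151 and 1613 microglia (28433185, 47639600 and 24269785 UMIs) in the order sham, control peptide and APOE130-149, the order used for all triplets of values below. The same gate gave 14, 15 and 17 border-associated macrophages, the macrophages of meninges and vessels, 35, 64 and 41 neutrophils, and 28, 49 and 28 monocytes. All 12 microglia markers were present in the gated microglia of each library. The gate asks for at least 8 of them per cell, so this is no separate check of identity. The monocyte label is less clean, since the cluster that holds these cells was led by Cd209a, a marker of monocyte-derived dendritic cells.

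In microglia, the inhibitor Smad7 stood higher and the type I receptor Tgfbr1 lower in both NMOSD libraries than in sham, and the other 7 genes lay nearer to their sham levels. Smad7 was 1.42-fold higher with the control peptide (95% interval 1.38 to 1.45) and 1.48-fold higher with APOE130-149 (1.44 to 1.53). Tgfbr1 was 1.26-fold lower (1.24 to 1.28) and 1.25-fold lower (1.23 to 1.27) in the same libraries. Between the 2 NMOSD libraries the ratios of the 9 genes ran from 0.931 (Smad4) to 1.203 (Smad3). In monocytes 6 of the 9 genes were at least 1.5-fold under microglia in each library, where 28.1% of all genes were, and Tgfb1, Smad2 and Smad4 were not among the 6. In neutrophils 7 of 9 were, beside 56.1% of all genes, or 6 of 9 beside 32.3% with UMIs of the marker genes left out.

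**Figure D1:**
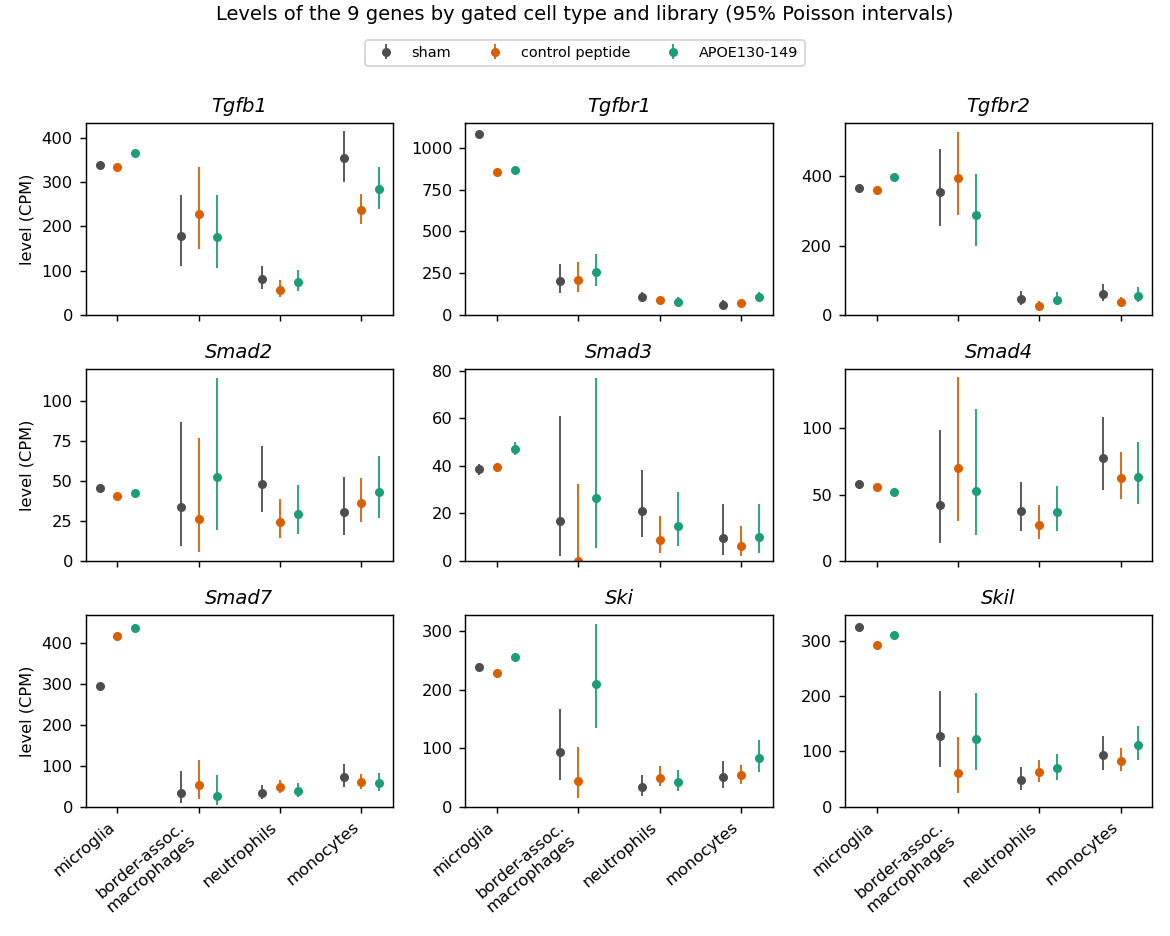
Level in CPM of each of the 9 genes (1 panel per gene, linear axis from 0) in the 4 gated cell types, with 1 point per library and 95% Poisson intervals. Microglia hold the narrowest intervals. Tgfbr1 and Smad7 lie far above the other cell types there, while Tgfb1 in monocytes reaches the microglial range and Smad2 and Smad4 overlap between types.

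Tgfb1 (ENSMUSG00000002603) lies on chr7:25687002-25705077, plus strand, Tgfbr1 (ENSMUSG00000007613) on chr4:47353222-47414931, plus strand, and Tgfbr2 (ENSMUSG00000032440) on chr9:116084293-116175360, minus strand, in GRCm38. The 180 bases before the start of each are shown because these are the ligand and the receptor pair of the pathway. The sequences come from RefSeq promoter entries on GRCm38.p6, 5′ to 3′ on the gene's strand. Capitals mark GGGCGG, the GC box bound by Sp factors, and CAGAC, a SMAD-binding element, on either strand. The stretches are chr7:25686822-25687001, chr4:47353042-47353221 and chr9:116175364-116175543, and the last ends 3 bases before the annotated start of Tgfbr2. Tgfbr1 has a further RefSeq promoter inside the gene, and the one at the annotated start is shown.
Tgfb1: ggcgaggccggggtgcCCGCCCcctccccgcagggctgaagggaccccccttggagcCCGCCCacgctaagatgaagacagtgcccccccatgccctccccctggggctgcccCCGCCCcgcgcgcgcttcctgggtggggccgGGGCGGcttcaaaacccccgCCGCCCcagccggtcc
Tgfbr1: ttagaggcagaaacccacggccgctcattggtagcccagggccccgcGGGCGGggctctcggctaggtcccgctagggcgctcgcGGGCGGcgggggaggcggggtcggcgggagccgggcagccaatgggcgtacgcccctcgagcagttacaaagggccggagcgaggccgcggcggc
Tgfbr2: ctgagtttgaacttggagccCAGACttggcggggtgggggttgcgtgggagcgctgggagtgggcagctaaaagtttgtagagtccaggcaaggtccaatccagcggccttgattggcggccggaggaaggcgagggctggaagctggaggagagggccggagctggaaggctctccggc
The Tgfb1 stretch holds 5 GC boxes and is 78.3% G or C, that of Tgfbr1 holds 2 and is 75.6% G or C, and that of Tgfbr2 holds none, with 1 CAGAC and 63.9% G or C. Over the 250 bases before the start, 32.7% of 32851 RefSeq mouse promoters hold GGGCGG and 42.2% hold CAGAC on either strand. The palindromic AP-1 motif TGANTCA, which Fos and Jun dimers bind, occurs in 6.75% of them and in none of the 5 genes with an entry that was searched (Tgfb1, Tgfbr1, Tgfbr2, Smad3 and Ski).

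Tgfb1, the ligand gene, was read at 339, 335 and 366 CPM in microglia. The sham and control peptide libraries were alike (ratio 0.989, 0.965 to 1.01), and the APOE130-149 library was 1.09-fold above the control peptide (1.06 to 1.12). Monocytes carried Tgfb1 at 354, 238 and 284 CPM, a level that overlapped that of microglia in sham and was 1.41-fold (1.22 to 1.63) and 1.29-fold (1.09 to 1.53) lower in the 2 NMOSD libraries. Border-associated macrophages had 178, 228 and 175 CPM from 21, 26 and 20 UMIs. Neutrophils had the least, 81.4, 57.1 and 74.9 CPM, or 4.16-fold to 5.87-fold under microglia. In the NMOSD libraries the order ran from microglia through monocytes and border-associated macrophages to neutrophils, and the intervals of monocytes and border-associated macrophages overlapped. In sham, monocytes stood with microglia, and the intervals of border-associated macrophages and neutrophils touched.

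Among monocytes, Tgfb1 was 0.672 of the sham level with the control peptide (0.540 to 0.838). Markers of other cells moved in the same libraries: the 5 dendritic cell markers summed to 833, 222 and 280 CPM in gated monocytes, and Clec9a and Xcr1 were among those at 0 in sham. The 15 neutrophil markers summed to 181, 11064 and 413 CPM, and the 12 microglia markers to 1607, 1684 and 2361 CPM. These sums do not describe the typical cell. The median monocyte had 126, 284 and 256 CPM of the neutrophil markers and 0 CPM of the dendritic cell markers in each library. The part of these markers in the Tgfb1 values was not tested.

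Tgfbr1, the type I receptor kinase, gave 1083, 857 and 866 CPM in microglia. Sham stood above both NMOSD libraries, which did not differ beyond counting error (ratio 1.01, 0.993 to 1.03). Tgfbr2, the ligand-binding type II receptor, gave 366, 362 and 398 CPM. Sham and control peptide overlapped for Tgfbr2 (ratio 0.990, 0.966 to 1.01), and APOE130-149 was 1.10-fold above control peptide (1.07 to 1.13). The ratios of the paired receptors between control peptide and sham, 0.791 (0.780 to 0.803) and 0.990, thus had intervals that did not overlap.

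The receptors also differed in how they divided the macrophage types. Tgfbr2 in border-associated macrophages was 355, 395 and 289 CPM, and the intervals of its ratio to microglia held 1 in all 3 libraries. Tgfbr1 in the same cells was 203, 211 and 254 CPM, which is 5.33-fold (3.58 to 8.32), 4.07-fold (2.73 to 6.35) and 3.41-fold (2.37 to 5.09) under microglia. As a fraction of microglia those Tgfbr1 levels were 0.188, 0.246 and 0.294, and the summed microglia markers in border-associated macrophages stood at 0.206, 0.241 and 0.227 of their microglial level. How much of the Tgfbr1 signal there came from microglial RNA was not tested.

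Neutrophils carried Tgfbr1 at 104, 88.6 and 76.7 CPM and Tgfbr2 at 45.9, 24.3 and 43.8 CPM, the former 9.68-fold to 11.3-fold and the latter 7.97-fold to 14.9-fold under microglia. The microglia markers in neutrophils stood at 0.0846, 0.0695 and 0.0724 of their microglial level, beside 0.0964, 0.103 and 0.0886 for Tgfbr1. Monocytes carried Tgfbr1 at 58.6, 69.8 and 104 CPM and Tgfbr2 at 61.0, 36.1 and 55.2 CPM. For Tgfbr1 in monocytes the fractions were 0.0542, 0.0814 and 0.120, beside 0.0599, 0.0610 and 0.0820 for the microglia markers. Levels of Tgfbr1 in both types of blood-derived cell were thus of the same order as the fraction at which microglia markers were read in them, and whether those cells express it was not tested.

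Of the receptor-activated transducers, Smad2 (ENSMUSG00000024563, chr18:76241580-76310963, plus strand) was read at 45.6, 40.3 and 42.2 CPM in microglia. It was 1.13-fold lower with the control peptide than in sham (1.05 to 1.21). Smad3 (ENSMUSG00000032402, chr9:63646767-63757994, minus strand) was read at 38.5, 39.3 and 47.3 CPM. Sham and control peptide overlapped for Smad3, and APOE130-149 stood 1.203-fold above the control peptide (1.12 to 1.30) and 1.23-fold above sham (1.13 to 1.33). Of the 8373 genes compared between the NMOSD libraries, 95.2% had a lower ratio than Smad3.

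Smad4 (ENSMUSG00000024515, chr18:73639009-73703780, minus strand), the partner that TGF-beta and BMP signals share, gave 57.9, 55.7 and 51.8 CPM in microglia. It was 1.12-fold lower with APOE130-149 than in sham (1.04 to 1.203). Smad4 and Smad2 were the only members that were at least 1.5-fold lower than in microglia in each library in none of the 3 other types. Monocytes had 77.4, 62.3 and 63.4 CPM of Smad4, with intervals of the ratio to microglia that held 1 in each library. Smad2 in monocytes was 30.5, 36.1 and 42.9 CPM, again with intervals of the ratio that held 1. Smad3 was sparser outside microglia, with 9.38, 6.23 and 10.2 CPM in monocytes and 20.9, 8.57 and 14.6 CPM in neutrophils. In border-associated macrophages Smad3 rested on 2, 0 and 3 UMIs, and 3 counts, taken as the limit that a count of 0 allows, come to 26.3 CPM (exact 95% Poisson limit 32.4 CPM).

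Smad7 (ENSMUSG00000025880, chr18:75367529-75395935, plus strand), the inhibitory SMAD, gave 294, 417 and 437 CPM in microglia. Both NMOSD libraries lay above sham with no overlap of intervals, and APOE130-149 lay 1.05-fold above control peptide (1.02 to 1.07). Each Tgfbr1 UMI in microglia was accompanied by 0.272 Smad7 UMIs in sham (0.265 to 0.278), 0.487 with the control peptide (0.478 to 0.495) and 0.504 with APOE130-149 (0.493 to 0.516). This ratio needs no scaling to library totals, and it was higher in both NMOSD libraries. Smad7 in the other cells was low: 33.9, 52.7 and 26.3 CPM in border-associated macrophages from 4, 6 and 3 UMIs, 33.4, 47.1 and 38.3 CPM in neutrophils, and 72.7, 59.8 and 57.2 CPM in monocytes. In border-associated macrophages Smad7 stood at 0.115 (0.0313 to 0.295), 0.126 (0.0463 to 0.275) and 0.0602 (0.0124 to 0.176) of its microglial level. The microglia markers were read there at 0.206, 0.241 and 0.227 of theirs. The Smad7 intervals held the marker fraction in sham and control peptide and lay below it with APOE130-149.

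Ski (ENSMUSG00000029050, chr4:155154075-155222592, minus strand) gave 240, 230 and 256 CPM in microglia, and Skil (ENSMUSG00000027660, chr3:31095058-31122577, plus strand), also known as SnoN, gave 324, 293 and 309 CPM. Ski was 1.11-fold higher with APOE130-149 than with the control peptide (1.08 to 1.15). Skil, which is itself a TGF-beta target in other cells, was 1.11-fold lower with the control peptide than in sham (1.08 to 1.14), the direction opposite to that of Smad7. In border-associated macrophages Ski gave 93.1, 43.9 and 210 CPM from 11, 5 and 24 UMIs. Its ratio of APOE130-149 to control peptide there was 4.79 with an interval of 1.79 to 16.1, which 24 and 5 UMIs leave wide. Neutrophils had 33.4, 50.0 and 42.0 CPM of Ski and 48.0, 62.9 and 69.4 CPM of Skil. Monocytes had 51.6, 53.6 and 83.8 CPM of Ski and 93.8, 83.5 and 112 CPM of Skil.

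Against microglia, no member was at least 1.5-fold higher in all 3 libraries in any of the 3 other cell types, while 7.2% of genes were in border-associated macrophages, 11.8% in neutrophils and 16.4% in monocytes. In border-associated macrophages 4 of the 9 (Tgfbr1, Smad3, Smad7 and Skil) were at least 1.5-fold lower in each library, where 11.2% of 8994 genes were. Monocytes had 6 of 9 lower (Tgfbr1, Tgfbr2, Smad3, Smad7, Ski and Skil) beside 28.1% of 9018 genes. Neutrophils had 7 of 9 lower, all but Smad2 and Smad4, beside 56.1% of 8914 genes. The background share was highest in neutrophils. The 15 neutrophil markers alone took 411710, 419700 and 420310 CPM in those cells, which lowers every other gene in CPM. With UMIs of the marker genes left out, 6 of 9 were lower in neutrophils beside 32.3% of genes.

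The gate's limits decide part of these counts. With the cut on microglia markers and the minimum of UMIs both lifted, 0 of 9 members were lower in border-associated macrophages beside 0.117% of genes, 4 in neutrophils beside 17.5% and 4 in monocytes beside 18.3% (Tgfbr1, Tgfbr2, Smad7 and Skil in both). As bulk sums over cells, these levels do not separate fewer cells that carry a transcript from less RNA per cell, and the shares of cells with a UMI given below depend on both.

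After each microglial cell was thinned to 2000 UMIs, Tgfbr1 was detected in 84.4% of cells in sham (83.1 to 85.7), in 79.6% under the control peptide and in 81.0% under APOE130-149. Smad7 was detected in 43.4%, 51.3% and 52.4%. At this depth the orders were those of the levels. At 5000 UMIs per cell Smad7 was detected in 72.9%, 81.3% and 78.6%, so that APOE130-149 stood below the control peptide, against the order of the levels. The other members gave 48.5%, 48.0% and 50.0% for Tgfb1, 51.6%, 50.2% and 54.6% for Tgfbr2, 37.9%, 37.3% and 40.6% for Ski, and 46.1%, 43.4% and 44.3% for Skil. Smad2, Smad3 and Smad4 were found in 6.90% to 11.1% of thinned cells. Unthinned, where median depth was 8230, 7943 and 10337 UMIs, Tgfbr1 was detected in 98.9%, 98.2% and 98.7% of cells and Smad7 in 83.6%, 87.7% and 90.0%.

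The same thinning found Tgfbr1 in 14.3%, 10.9% and 14.6% of neutrophils, whose unthinned median depths were 11824, 9929 and 11627 UMIs. What part of this detection came from RNA of other cells was not tested. Tgfb1 was found in 71.4% of 28 sham monocytes (51.3 to 86.8), 32.7% of 49 control peptide monocytes (19.9 to 47.5) and 35.7% of 28 APOE130-149 monocytes (18.6 to 55.9). The sham share lay above the control peptide share without overlap of intervals at this depth, as the level did. At 5000 UMIs per cell the 3 shares were 77.8%, 68.8% and 73.1%, with overlapping intervals.

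Transcripts of the ligand and of both receptors were detected together in many microglial cells, though not in all. At 5000 UMIs per cell (2617, 3634 and 1498 cells), Tgfbr1 and Tgfbr2 were both detected in 80.4%, 78.6% and 82.8% of microglia, beside 80.3%, 78.7% and 82.7% from multiplying their separate shares. All of Tgfb1, Tgfbr1 and Tgfbr2 were detected in 64.0%, 62.3% and 67.9%, beside products of 63.8%, 62.5% and 67.3%. Detection of the 3 genes thus coincided about as often as independent detection would give. At least 1 receptor was seen in 99.6%, 99.3% and 99.4% of cells, and the median cell had 5, 5 and 6 of the 9 genes.

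**Figure D2:**
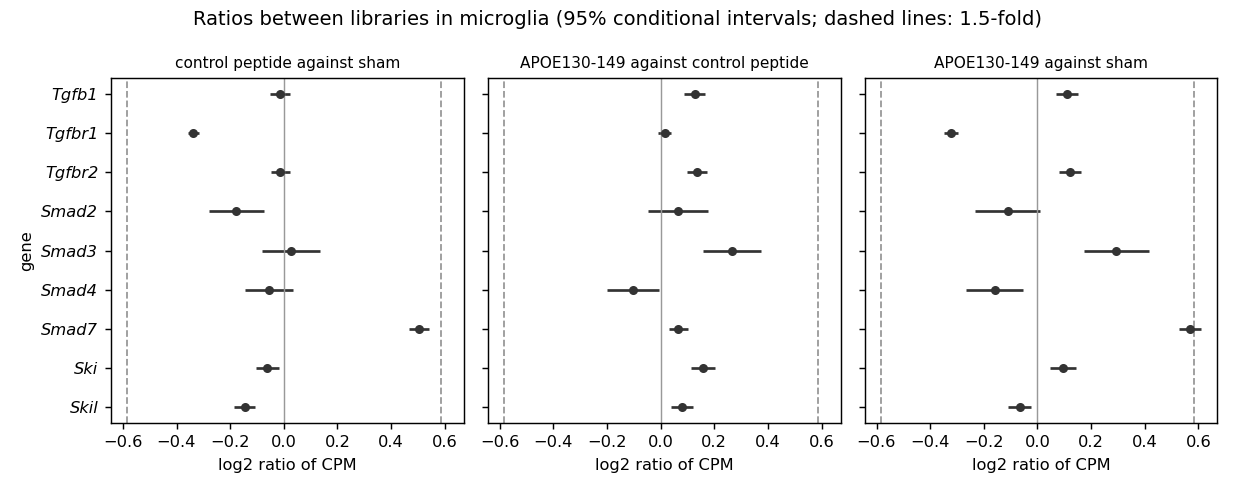
Log2 ratio of CPM in microglia for each of the 9 genes in the 3 pairwise comparisons, with 95% conditional intervals and dashed lines at 1.5-fold. Smad7 lies right of 0 and Tgfbr1 left of 0 in both comparisons with sham, no point lies beyond a dashed line, and the points of the NMOSD comparison sit close to 0.

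By a threshold of 1.5-fold, 0 of the 9 genes were higher and 0 lower in microglia in any comparison. Of the genes with at least 10 CPM in either library, 1.52% were higher and 1.07% lower with the control peptide than in sham (8489 genes), 0.502% and 0.131% with APOE130-149 than with the control peptide (8373 genes), and 1.68% and 1.05% with APOE130-149 than in sham (8508 genes). The comparisons share libraries and are not independent of each other. At 1.2-fold, control peptide against sham gave Smad7 higher beside 5.11% of genes and Tgfbr1 lower beside 18.2%. APOE130-149 against control peptide gave Smad3 higher beside 5.05% and no member lower beside 2.11%. APOE130-149 against sham gave Smad7 and Smad3 higher beside 5.37% and Tgfbr1 lower beside 14.9%.

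Smad7 thus lay nearer than Tgfbr1 to the edge of the whole distribution. Of all genes, 98.2% had a lower ratio than Smad7 between control peptide and sham, and 98.3% between APOE130-149 and sham, while 10.2% and 9.73% had a lower ratio than Tgfbr1. The median log2 ratio of the 9 genes was -0.06 for control peptide against sham (2 above 0, 7 below) beside -0.08 over all genes. It was 0.08 for APOE130-149 against control peptide (8 above, 1 below) beside 0.01, and 0.10 for APOE130-149 against sham (5 above, 4 below) beside -0.05.

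Markers of other cells in the microglial gate also differed between libraries. The 4 choroid plexus and ependymal markers summed to 0.879, 117 and 75.4 CPM, the 3 red cell markers to 0.352, 26.0 and 25.6 CPM, the 11 monocyte markers to 55.1, 90.6 and 82.8 CPM and the 15 neutrophil markers to 310, 386 and 429 CPM. The 12 microglia markers summed to 26802, 27598 and 28793 CPM. The choroid plexus, red cell, monocyte and neutrophil sums moved with the sham difference of both Smad7 and Tgfbr1, and their part was not tested.

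Microglia fell into clusters, of which 7 held at least 30 gated microglia in each library. Their shares differed between libraries: cluster 0 held 41.5%, 5.90% and 1.86% of the gated microglia, cluster 3, led by Rgs1, Fosb and Klf4, held 1.40%, 27.9% and 27.7%, and cluster 10, led by Atf3, Fos and Dusp1, held 1.23%, 8.94% and 28.1%. Cluster 4, led by the cell division genes Hmmr, Prc1, Top2a and Mki67, held 4.17%, 7.08% and 7.75%. The clusters were built from 2000 variable genes of the same cells and counts, so levels by cluster are a description.

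Cells of the dividing cluster had the lowest level of the 7 clusters in 25 of 27 pairs of gene and library. The same count was not made over all genes, so it cannot be read as a trait of the members. Tgfbr1 there was 514, 525 and 495 CPM, while in cluster 0 it was 1385, 1264 and 1145 CPM. Smad7 in cluster 4 was 157, 257 and 246 CPM. Cells of cluster 4 had a median of 16967 UMIs, beside 6884 in cluster 0.

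Within clusters Smad7 kept the direction of its difference between control peptide and sham. The ratio of control peptide to sham was above 1 in 7 of 7 clusters, from 1.05 to 1.63 with a median of 1.25, beside 1.42 over all microglia. The interval of the Smad7 ratio held 1 in clusters 2 and 3. Tgfbr1 was below 1 in all but 1 of the 7, from 0.705 to 1.02 with a median of 0.896, beside 0.791 over all microglia. The exception was the dividing cluster. Skil was below 1 in each, from 0.695 to 0.955, with intervals that held 1 in clusters 0, 4, 6 and 9. For APOE130-149 against sham, Smad7 was above 1 in 6 of 7 clusters, from 0.953 to 1.57 with a median of 1.24. The intervals of that ratio held 1 in clusters 0, 2 and 3, and cluster 0 lay below 1 on 30 APOE130-149 cells. The clusters are parts of the same libraries and not replicates, and these counts were not made over all genes.

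For APOE130-149 against control peptide, Tgfb1 was above 1 in 7 of 7 clusters (1.04 to 1.12) and Ski in 7 of 7 (1.04 to 1.36). The intervals held 1 in clusters 0, 2, 3, 6 and 9 for Tgfb1 and in clusters 4, 6 and 9 for Ski. The highest Ski ratio, in cluster 0, rested on 30 APOE130-149 cells, and the same counts were not made over all genes. Smad7, 1.05-fold higher over all microglia in that comparison, was above 1 in only 1 of the 7 (0.842 to 1.0004). Smad3, the gene with the highest ratio there, was above 1 in 4 of 7 clusters (0.730 to 1.199), with a median of 1.11. Its interval held 1 in every cluster but cluster 10 (1.03 to 1.39).

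**Figure D3:**
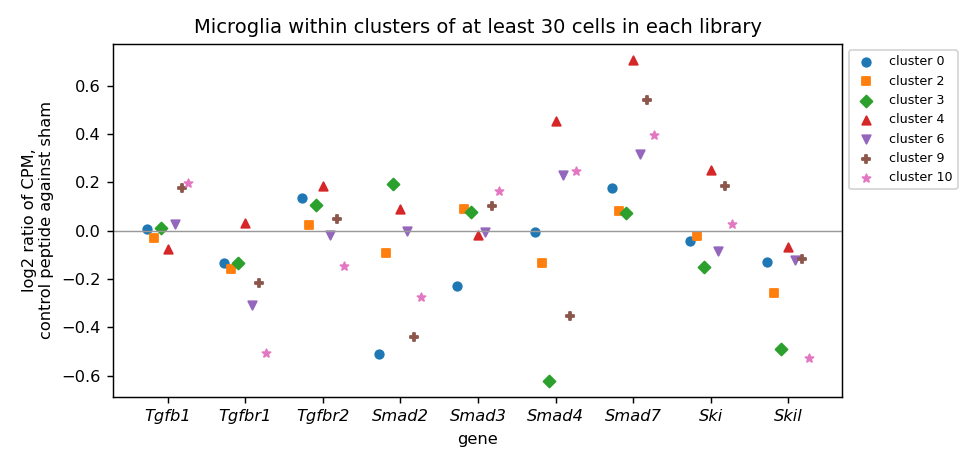
Log2 ratio of CPM, control peptide against sham, for each of the 9 genes within each of the 7 clusters that hold at least 30 gated microglia in every library; each symbol is 1 cluster and no error is drawn. Smad7 lies above 0 in every cluster and Skil below 0 in every cluster, while Smad4 and Smad2 scatter widely on few UMIs.

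The leading genes of clusters 3 and 10 are immediate early genes, which cells switch on within minutes of a stimulus. A sum of 11 of them (Fos, Fosb, Jun, Junb, Jund, Egr1, Atf3, Ier2, Dusp1, Klf2 and Klf4) stood at 1569, 7081 and 10380 CPM in microglia. Gated microglia of the 3 libraries were pooled and divided into tertiles of that sum per cell, so a tertile is a range of a score and not a cell type. The low tertile held 81.3%, 9.56% and 5.21% of the microglia of the 3 libraries, and the high tertile 2.53%, 41.3% and 70.2%. Within 10% of a tertile limit lay 212, 709 and 155 cells. With cells thinned to 2000 UMIs before the division, the low tertile held 77.8%, 11.6% and 6.51%.

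Smad7 was higher at higher levels of the immediate early genes in each library. From the low through the middle to the high tertile it was 281, 342 and 417 CPM in sham, 200, 381 and 502 CPM with the control peptide, and 179, 320 and 485 CPM with APOE130-149. The ratio of control peptide to sham for Smad7 was 0.712 in the low tertile, 1.12 in the middle and 1.204 in the high tertile, so its direction was turned around in the low tertile. That of APOE130-149 to sham was 0.638, 0.936 (0.874 to 1.003) and 1.165 in the same order, so it was above 1 only in the high tertile. For APOE130-149 against control peptide the Smad7 ratio was 0.896 (0.753 to 1.06), 0.840 and 0.967. It was below 1 in each tertile, beside 1.05 over all microglia. Skil had the same order across tertiles, with 314, 342 and 529 CPM in sham, 214, 271 and 334 CPM with the control peptide, and 177, 240 and 337 CPM with APOE130-149.

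Tgfbr1 behaved differently. It was 1077, 1118 and 1051 CPM over the tertiles in sham, with no order, and 620, 865 and 897 CPM with the control peptide. With APOE130-149 it was 587, 733 and 920 CPM. The ratio of control peptide to sham for Tgfbr1 was 0.576, 0.774 and 0.853, below 1 in each tertile. Tgfb1 stayed between 275 and 375 CPM in all 9 combinations of tertile and library. The ratio of APOE130-149 to control peptide for Smad3 was 0.908 (0.533 to 1.47), 0.9995 (0.855 to 1.16) and 1.18 (1.07 to 1.29) over the tertiles.

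The low tertile does not hold like cells in the 3 libraries. There, 30.5% of control peptide and 46.4% of APOE130-149 cells belonged to the dividing cluster 4, whereas cluster 0 was the largest in sham with 43.5%. In that tertile 2 members (Tgfbr1 and Smad3) were at least 1.5-fold lower with the control peptide than in sham, beside 21% of 8677 genes, and 0 were higher beside 9.74%. In the middle tertile 0 were lower beside 4.6% and 0 higher beside 1.47% of genes. In the high tertile 1 member (Skil) was lower beside 9.43% of 8749 genes and 0 were higher beside 5.73%, and sham had 76 cells there. How far immediate early gene induction, cell division and library each account for the Smad7 and Tgfbr1 values was not tested.

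**Figure D4:**
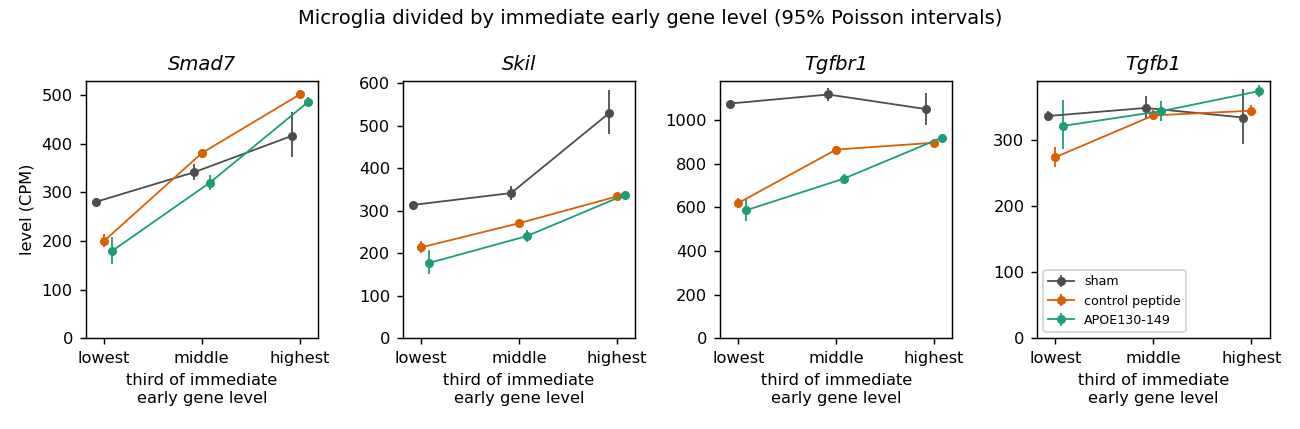
Level in CPM of Smad7, Skil, Tgfbr1 and Tgfb1 in microglia divided into 3 groups of equal cell number (tertiles) by the summed level of 11 immediate early genes over the pooled libraries, with 95% Poisson intervals; lines join the points of 1 library. Smad7 and Skil are higher to the right in each library, Tgfbr1 is level in sham and higher to the right in both NMOSD libraries, and Tgfb1 has little slope.

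The rest of the pathway in microglia was described from 7 lists, with a call at 1.5-fold among members of at least 10 CPM. Supply and activation of TGF-beta had 3 of 13 members at that level: Furin, the protease that matures the precursor, at 60.6, 49.1 and 60.2 CPM, the integrin subunit Itgav at 134, 115 and 112 CPM, and Nrros, which holds latent TGF-beta on the microglial surface, at 112, 128 and 152 CPM. None of the 3 passed in any comparison. The ratio nearest to that threshold was that of Nrros, 1.36-fold higher with APOE130-149 than in sham (1.29 to 1.42). The other ligand genes were near absent, with Tgfb2 at 0.176, 0.693 and 0.536 CPM and Tgfb3 at 1, 3 and 1 UMIs in all.

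Receptor partners and decoys had 5 of 8 members at 10 CPM or more and none past 1.5-fold. Endoglin (Eng), a co-receptor, was read at 77.1, 71.6 and 80.6 CPM. The BMP and activin branch had 8 of 13, none past 1.5-fold. Its type I receptor gene Bmpr1a was read at 37.5, 29.98 and 32.3 CPM and its transducer Smad1 at 63.5, 66.8 and 66.7 CPM.

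All 14 modifiers and corepressors and all 9 transcription partners and TAK1 branch genes were at 10 CPM or more, and none passed 1.5-fold. Their median log2 ratios for control peptide against sham were -0.14 and -0.25, beside -0.08 over all genes. The ubiquitin ligase Wwp1 was at 37.7 CPM in sham and 28.3 CPM with the control peptide, and the deubiquitinase Usp9x, which acts on SMAD4, at 94.7 and 75.04 CPM. The coactivator Ep300 gave 198, 155 and 163 CPM.

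Direct target genes known from other cells, a list that shares Smad7 and Skil with the 9, had 7 of 14 at 10 CPM or more for control peptide against sham, 1 of them past 1.5-fold. That was Id2, an inhibitor of helix-loop-helix factors, at 40.6, 116 and 126 CPM, or 2.86-fold higher with the control peptide than in sham (2.68 to 3.05). Id1, Id2 and Id3 are better known as BMP targets, and Id1 and Id3 were read at no more than 2.14 CPM. With APOE130-149 Id2 was 3.11-fold higher than in sham (2.91 to 3.33). Tgif1, a SMAD corepressor induced by TGF-beta, was at 44.0, 39.8 and 51.2 CPM.

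Of 18 microglial genes known to need TGF-beta, a list that holds Tgfbr1 and several gate markers, all were at 10 CPM or more and none passed 1.5-fold in any comparison. The median log2 ratio was -0.04 for control peptide against sham, 0.06 for APOE130-149 against control peptide and 0.06 for APOE130-149 against sham. P2ry12, the purinergic receptor of resting microglia, was at 2638, 2443 and 2663 CPM and Tmem119 at 1153, 1198 and 1199 CPM. The list's highest and lowest ratios for control peptide against sham after Tgfbr1 were those of the matrix protein gene Sparc, at 3531, 4415 and 4069 CPM, and the phagocytic receptor gene Mertk, at 560, 457 and 472 CPM. Mertk thus stood with Tgfbr1 on the low side of sham in both NMOSD libraries. Csf1r, the receptor for colony-stimulating factor, was 1.17-fold higher with APOE130-149 than with the control peptide (1.16 to 1.18).

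Across the 12 profiles of 4 cell types in 3 libraries, the genes with levels most like each member were found by Pearson correlation of log2(CPM + 1) among 9301 genes. The profiles share libraries and the contrast of microglia with other cells, so the coefficients are a description. Tgfbr1 was much like Pde3b (r = 0.991) and P2ry12 (0.982), and Tgfbr2 most like Frmd4b (0.991), Tpp1 (0.988) and Bmpr2 (0.988), the type II BMP receptor gene. Smad7 was most like Selplg (0.969), Speg (0.963) and Naalad2 (0.940). P2ry12 and Selplg helped define the microglial gate.
Tgfb1 was most like Lat2 (0.979), Abce1 (0.979) and Cd2ap (0.975), Ski like Mkln1 (0.975), and Skil like Hps4 (0.979). For the sparser genes the best matches were looser, Smad4 with Ddx27 (0.957), Smad3 with Accs (0.940) and Smad2 with Il15ra (0.891).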

How the data were processed

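The authors' deposited matrices hold raw UMI counts, whole numbers for each gene in each barcode, as the file headers and the values show. The build was mm10 and the tools were Seurat 4.3.0 and Cell Ranger 5.0.1, per the submitters' processing notes, while the file headers name cellranger 7.0.1. The version behind the counts, the treatment of intronic reads and the use of strand are not stated in the sources used. The libraries were made with a 10x single-cell 3′ kit, per the labels' protocols.

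Kept cells had 500 or more genes and no more than 10% of UMIs from mitochondrial genes. Microglia needed at least 8 of 12 markers, neutrophils 9 of 15, border-associated macrophages 6 of 11 and monocytes 6 of 11, for exactly 1 type, with at least 2000 UMIs. Summed microglia markers had to reach 40% of the library's microglial median in microglia and stay below it in the other types. The latter 2 limits, the tertiles and their 11 genes were set after the data were seen. Cells with markers of another type and microglia markers were set apart (35, 128 and 54 for border-associated macrophages), and no doublet caller was run. Clusters came from 2000 variable genes, 30 principal components, 15 neighbours and Leiden at resolution 1.

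UMIs were summed per library and type, with 1 library per group and so no test. A count of 0 was given a limit of 3 counts. The scripts were tested on simulated data. The text names the 9 members, of each pathway list the 2 members with the highest and lowest ratio at 10 CPM or more, and for each member the 3 most similar genes, with some left out for length or not reported here. Other ligand genes, Id1, Id3, P2ry12 and Tmem119 were added after their values were seen. The members and lists were chosen with earlier results of these data known.

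Gene positions came from GENCODE M21 (32158 of 32285 identifiers found). Smad4 overlaps a processed pseudogene on the other strand that the files do not count. Promoter sequences came from RefSeq. Python 3.11.15, numpy 2.4.6, scipy 1.17.1, pandas 2.3.3, scanpy 1.11.5, igraph 0.11.9 and matplotlib 3.10.9 were used.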

Additional observations from a re-analysis of the deposited data

How the results depend on the processing

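No paired analysis was possible because each group is 1 library, and for the same reason no replicate could be left out. The count of members past 1.5-fold in microglia, 0 in each comparison, moved under these choices. With median-of-ratios scaling it was 1 for control peptide against sham and 1 for APOE130-149 against sham, Smad7 both times, and that scaling moved the median log2 ratio of all genes for control peptide against sham from -0.08 to 0.00. At a threshold of 1.2-fold it was 2, 1 and 3 for control peptide against sham, APOE130-149 against control peptide and APOE130-149 against sham. With no minimum of UMIs and no cut on microglia markers it was 1 for APOE130-149 against sham. For control peptide against sham it was 2 within the low tertile of immediate early gene level and 1 within the high tertile. The other settings (stricter limits on genes and mitochondrial UMIs, Leiden clusters, cells above 2 times the median depth left out, a stricter gate, means over cells, no minimum level, and the cells richest in each gene left out) gave 0 in each comparison.

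Over 9 settings, Smad7 for control peptide against sham ran from 1.39 to 1.502 and Tgfbr1 from 0.781 to 0.852. For that comparison the sign changed under some setting for Tgfb1, Tgfbr2, Smad4 and Ski, and for APOE130-149 against control peptide for Tgfbr1 and Smad2. The stricter gate left too few cells outside microglia for a value. Depth limits the 14 to 17 border-associated macrophages most, where Smad2, Smad3, Smad4 and Smad7 rest on 0 to 8 UMIs.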
